A study of Mus musculus with 7 samples.

Results

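The enzymes that write, copy and oxidize DNA methylation were followed in whole colon tumors of mice carrying either wild-type or Dnmt3a-heterozygous bone marrow (BM). The 8 genes, taken by symbol from a table of 43346 genes, were Dnmt1, Dnmt3a, Dnmt3b, Dnmt3l, Uhrf1, Tet1, Tet2 and Tet3. All 8 were found, and 7 passed the filter on low counts together with 15810 genes in all; Dnmt3l did not.

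Poly(A) RNA of 7 tumors was sequenced, 3 from mice with Dnmt3a(+/+) BM and 4 from mice with Dnmt3a(+/-) BM, written Dnmt3a+/Δ from here on. Donors of both groups were C57BL6/J mice with the Mx1-Cre transgene, driven by an interferon-inducible promoter, and received poly(I:C). Only the donors of the second group carried a floxed Dnmt3a allele, so 1 copy of Dnmt3a was removed in blood-forming cells. The marrow went into lethally irradiated, Dnmt3a wild-type congenic recipients, listed as 8 weeks old, and both groups then had 1 injection of azoxymethane (AOM; 10 mg/kg), a colon carcinogen, and dextran sulfate sodium (DSS), which inflames the colon, at 3% in the drinking water in 3 cycles. This model gives colitis-associated tumors. The recipient's own cells were therefore Dnmt3a wild-type, and only graft-derived cells in the tumor could carry the deletion. Tumor epithelium, fibroblasts and vessels are taken here as recipient cells, but their origin was not measured.

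The sample labels begin with BMT18 (2 Dnmt3a+/+ and 2 Dnmt3a+/Δ tumors) or BMT8 (1 and 2 tumors). The paper writes BMT for BM transplantation. The 2 prefixes are taken here as 2 experiments, which the labels do not spell out. Total counts ran from 38472738 to 64314999 per tumor, and Spearman correlations between tumors over all genes ran from 0.931 to 0.957. The colon epithelium markers were present in all tumors, with Krt8, a keratin of simple epithelium, at a mean of 10303 counts per 1e6 counts (CPM) in Dnmt3a+/+ BM tumors and 6009 in Dnmt3a+/Δ BM tumors. Dnmt3a+/Δ BM replicate 2 stood apart in its cell type markers. Its fibroblast markers had a mean log2 CPM of 5.88 against 3.25 to 4.06 in the other tumors, and its leukocyte markers 3.72 against 0.97 to 2.89.

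DNA methylation in mammals sits mainly on cytosines of CpG dinucleotides. Dnmt3a and Dnmt3b place new methyl groups, and Dnmt3l, which lacks catalytic activity, stimulates both. Dnmt1 copies the pattern to the daughter strand after replication, guided by Uhrf1, which binds hemimethylated DNA at the replication fork. Tet1, Tet2 and Tet3 oxidize 5-methylcytosine to 5-hydroxymethylcytosine and further, which leads to demethylation. DNMT3A and TET2 are among the genes most often mutated in clonal hematopoiesis, and DNMT1 and UHRF1 are known to be made mainly in dividing cells.

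Transcription of many replication genes is driven by E2F factors, so the 250 bases before each annotated start of the 8 genes were searched for E2F-type letters (TTTGGCGC, TTTCCCGC, TTTCGCGC or TTTGCCGC, on either strand) and for CCAAT, the letters bound by the factor NF-Y. E2F-type letters were in 2 of the 15 windows of the 8 genes (13.3%), 1 of Uhrf1 and 1 of Dnmt1, and in 1.86% of 32851 such windows over all genes. All these letters hold CpG, and the 2 windows held 30 (Uhrf1) and 26 (Dnmt1) CpG against a median of 6 over all windows. The 2 shares thus compare unlike windows. Both sequences are shown because these are the 2 genes compared with cell cycle genes below; they are from RefSeq annotation of GRCm38.p6, on the strand of the gene, with the matched letters in capitals. The Uhrf1 window is chr17:56304063-56304312 (plus strand), just before the start of 1 transcript and inside the first intron of longer ones. Its E2F-type match lies 185 bases before that start and its CCAAT matches lie 150 and 107 bases before it.
Uhrf1: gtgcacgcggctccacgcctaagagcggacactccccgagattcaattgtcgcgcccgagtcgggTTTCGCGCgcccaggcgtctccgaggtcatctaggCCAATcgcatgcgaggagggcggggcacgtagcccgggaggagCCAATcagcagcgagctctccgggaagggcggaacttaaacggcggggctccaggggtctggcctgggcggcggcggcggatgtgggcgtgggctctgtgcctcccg
The Dnmt1 match lies 219 bases before the start of a short transcript and inside the first exon of a longer one, and only the 30 bases around it, chr9:20952824-20952853 (minus strand), are printed.
Dnmt1: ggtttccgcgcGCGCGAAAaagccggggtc
The capitals in Dnmt1 are the reverse complement of those of the E2F-type match in Uhrf1. CCAAT was in 33.8% of all windows, so a match to it is common. The window at the principal annotated start of Dnmt1 held none of these letters. For Uhrf1, the window nearest a principal annotated start (16 bases from it, against 35 for the printed window) held CCAAT but no E2F-type letters. A match describes the sequence only.

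Levels were compared between genes per length, as CPM per kilobase of annotated exon. Uhrf1 stood highest at 14.0 ± 4.48 (SD, n = 7 tumors), followed by Dnmt1 at 9.22 ± 3.11 and Tet3 at 3.59 ± 0.941. Each of these was above the next gene in 7 of 7 tumors. Dnmt3a followed at 1.62 ± 0.460, above Dnmt3b (0.989 ± 0.466) in 6 of 7 tumors. Dnmt3b and Tet2 (0.802 ± 0.218) did not differ beyond their spread, Dnmt3b being the higher in 4 of 7 tumors, and their order turned when the longest transcript was used as the length (1.17 and 1.47). Dnmt3l at 0.0553 ± 0.0533 and Tet1 at 0.0442 ± 0.0358 were far below the rest and did not differ from each other beyond their spread, with Dnmt3l higher in 5 of 7 tumors. The pair Dnmt1 and Uhrf1 thus made up the top of the order in whole tumors, and the de novo enzymes its middle.

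**Figure D1:**
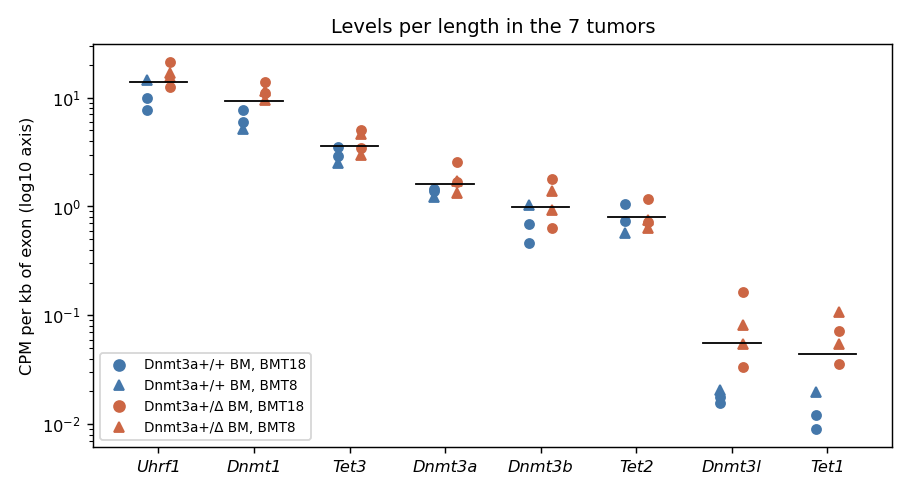
CPM per kilobase of annotated exon (log10 axis) of the 8 genes in each of 7 tumors, in blue for Dnmt3a+/+ BM and orange for Dnmt3a+/Δ BM, with circles for BMT18, triangles for BMT8 and a line at the mean of 7 tumors. Uhrf1 and Dnmt1 lie highest (14.0 and 9.22), and Dnmt3l and Tet1 lie lowest (0.0553 and 0.0442).

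The first comparison asked whether the graft deletion can be read from Dnmt3a in whole tumors (chr12:3806007-3914443, plus strand, GRCm38, the whole gene). Dnmt3a stood at 24.3, 23.1 and 20.2 CPM in the Dnmt3a+/+ BM tumors and at 27.7, 43.0, 28.3 and 22.0 CPM in the Dnmt3a+/Δ BM tumors. The groups overlapped, and no Dnmt3a+/Δ BM tumor was below the lowest Dnmt3a+/+ BM tumor. The means were 22.5 ± 2.06 (SD, n = 3) and 30.3 ± 8.94 (SD, n = 4). The log2 fold change was 0.43 ± 0.24 (SE; 95% interval -0.13 to 0.98; edgeR quasi-likelihood test, adjusted p = 0.542), so no fall was detectable. Without Dnmt3a+/Δ BM replicate 2 the log2 fold change was 0.24. With experiment as a covariate it was 0.47 ± 0.20 (SE, edgeR, adjusted p = 0.343). An exact two-sided permutation test over the 35 splits of the tumors gave p = 0.171, where the smallest p it allows is 0.0286. The counts sum all exons of the gene, so transcripts with and without the deleted part were not separated, and Dnmt3a did not check the graft labels here.

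How small a change the graft could make was set out by arithmetic. If graft cells supplied 10% of the Dnmt3a RNA of a tumor and that RNA were halved, the whole tumor would lose 5%, a log2 change of -0.07. A graft share of 25% would give -0.19, a share of 50% would give -0.42, and a share of 100% would give -1.0. With the SE of 0.24, a log2 change of 0.56 in size was needed for an unadjusted p of 0.05, which as a fall is 32.0% and would need 64.0% of the Dnmt3a RNA to come from the graft. The lower bound of the 95% interval, -0.13, is a fall of 8.65%, the value a halving would give at a graft share of 17.3%. The share of Dnmt3a RNA that came from the graft was not measured, and this arithmetic takes the remaining Dnmt3a RNA per cell and the number of cells as unchanged.

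**Figure D2:**
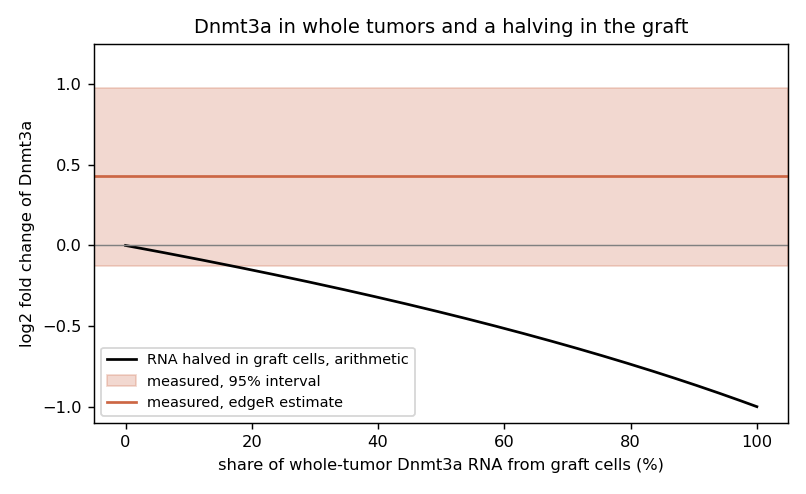
The black curve is the arithmetic log2 change of whole-tumor Dnmt3a (vertical axis) if its RNA were halved in graft cells, against the share of Dnmt3a RNA from graft cells in percent (horizontal axis). The orange line is the measured log2 fold change of 0.43 and the band its 95% interval of -0.13 to 0.98; the curve leaves the band at a share of 17.3%.

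After lethal irradiation, blood cells are largely replaced from the graft, and the RNA of leukocyte markers varied between tumors. The summed CPM of 18 leukocyte markers was 174, 81.2 and 154 in the Dnmt3a+/+ BM tumors and 184, 356, 141 and 73.9 in the Dnmt3a+/Δ BM tumors. None of the 18 was at 0 in all tumors, and 17 passed the filter on low counts, with a median log2 fold change of 0.47, or -0.01 without Dnmt3a+/Δ BM replicate 2. The most abundant, Lcp1, an actin-bundling protein of leukocytes, had 0.64, or 0.12 without that tumor. The tumor with the most Dnmt3a (43.0 CPM) also had the most leukocyte, fibroblast and endothelial marker RNA and the least epithelial marker RNA. The Dnmt3a+/Δ BM tumor with the least Dnmt3a (22.0) had the least leukocyte marker RNA of all 7. The tumor with the least Dnmt3a of all 7, Dnmt3a+/+ BM replicate 3 (20.2 CPM), was in the middle of the leukocyte range (154). Over the 7 tumors, log2 CPM of Dnmt3a and the mean of the leukocyte markers had Pearson's r = 0.73 (exact permutation over all pairings of the tumors, two-sided, p = 0.0675; adjusted over all genes tested, 0.731) and Spearman's rho = 0.61 (p = 0.167, exact; adjusted 0.707). Without Dnmt3a+/Δ BM replicates 2 and 4, the tumors farthest from the median, r was 0.33, so the relation rested on those tumors. With the fibroblast markers, r was higher, at 0.81 (p = 0.0873, exact permutation; adjusted 0.413), but rho was 0.00 (p = 1.00, adjusted 1.00), and r was -0.85 without Dnmt3a+/+ BM replicate 2 and Dnmt3a+/Δ BM replicate 2. With the epithelial markers, r was -0.82 (p = 0.0165, exact permutation; adjusted 0.236; rho = -0.64, p = 0.139, adjusted 0.512) and -0.39 without Dnmt3a+/Δ BM replicates 1 and 2. In bulk samples, fewer cells of a type and less RNA per cell cannot be told apart, and the part of cell makeup in the Dnmt3a values was not tested.

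Dnmt3b (chr2:153649450-153687730, plus strand), the other de novo enzyme, stood at 2.34, 3.50 and 5.32 CPM in the Dnmt3a+/+ BM tumors and at 3.22, 9.13, 4.77 and 7.06 CPM in the Dnmt3a+/Δ BM tumors. The groups overlapped. The log2 fold change was 0.70 ± 0.45 (SE; 95% interval -0.35 to 1.75; edgeR, adjusted p = 0.594) and 0.46 without Dnmt3a+/Δ BM replicate 2. A difference in Dnmt3b was thus not detectable at this number of tumors, and the interval takes in a rise as well as a fall.

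Dnmt3l (chr10:78041947-78063622, plus strand), the catalytically inactive partner, was at the limit of these libraries. It had 2, 3 and 2 counts in the Dnmt3a+/+ BM tumors and 4, 24, 8 and 9 counts in the Dnmt3a+/Δ BM tumors. Every Dnmt3a+/Δ BM tumor was above every Dnmt3a+/+ BM tumor per library size, but 24 of the 45 counts of the group came from replicate 2. Per library size, 45 against 7 counts gave a ratio of 4.91 (exact 95% interval 2.20 to 12.9, counting error only; an exact permutation test over the tumors gave p = 0.0571, two-sided). Without Dnmt3a+/Δ BM replicate 2, 21 against 7 counts gave a ratio of 3.18 (exact 95% interval 1.30 to 8.86). Aire, a gene on the opposite strand that overlaps Dnmt3l, had 1 to 13 counts. Whether the counting used strand is not given in the sources used here, so these few reads are uncertain.

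**Figure D3:**
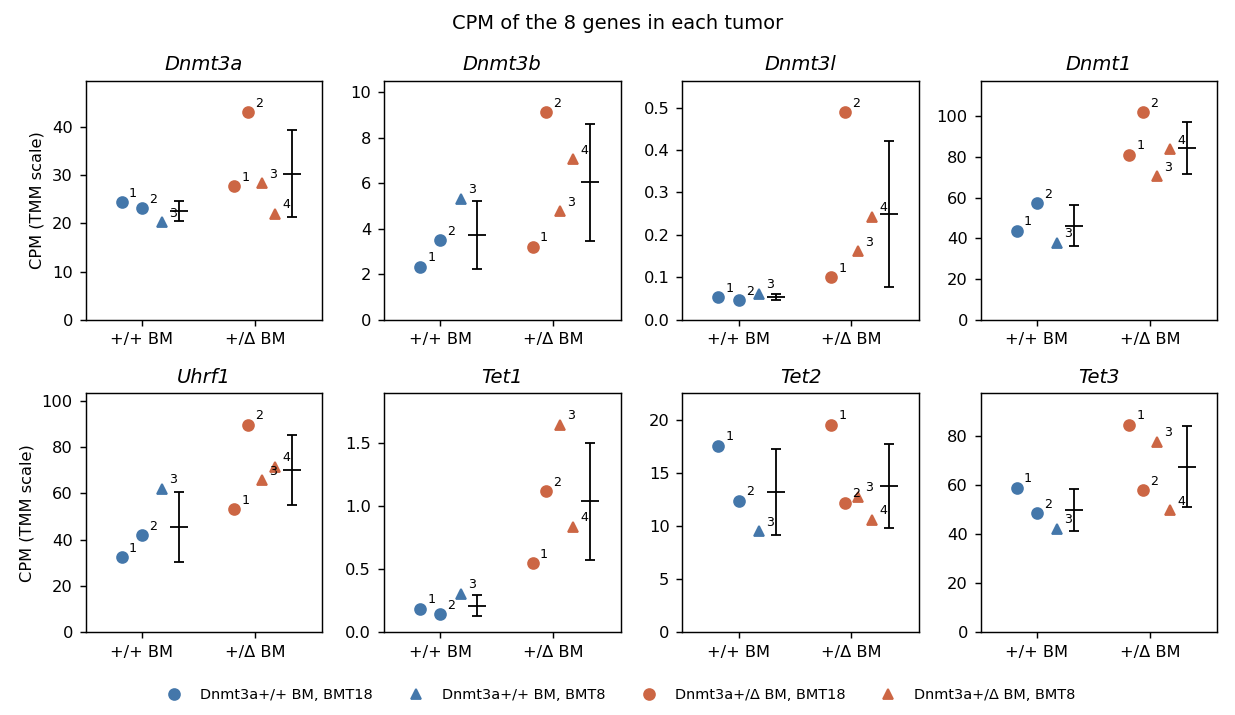
CPM (scaled by the TMM method) of the 8 genes in each tumor, with replicate numbers beside the points, blue for Dnmt3a+/+ BM, orange for Dnmt3a+/Δ BM, circles for BMT18 and triangles for BMT8; black marks are the mean ± SD. In Dnmt1, Tet1 and Dnmt3l every Dnmt3a+/Δ BM tumor lies above every Dnmt3a+/+ BM tumor, whereas in Dnmt3a the groups overlap.

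Dnmt1 (chr9:20907209-20959888, minus strand), the maintenance enzyme, separated the groups. It stood at 43.8, 57.3 and 37.9 CPM in the Dnmt3a+/+ BM tumors and at 81.2, 102, 70.5 and 83.9 CPM in the Dnmt3a+/Δ BM tumors. The lowest tumor with Dnmt3a+/Δ BM was above the highest tumor with Dnmt3a+/+ BM, in both experiments. The means were 46.3 ± 9.96 (SD, n = 3) and 84.3 ± 12.9 (SD, n = 4), a log2 fold change of 0.86 ± 0.20 (SE; 95% interval 0.41 to 1.32). The unadjusted p was 0.00247 and the adjusted p was 0.361 in the edgeR test, which called 0 genes of 15810. DESeq2 gave an adjusted p of 0.0289 at a log2 fold change of 0.87, under the fold threshold of 1. With 1 tumor left out this adjusted p ran from 0.0244 to 0.206, and it was 0.150 without Dnmt3a+/Δ BM replicate 2. With experiment as a covariate it was 0.00175, at a log2 fold change of 0.93.

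Uhrf1 (chr17:56303321-56323486, plus strand), the cofactor that brings Dnmt1 to hemimethylated DNA, stood at 32.5, 41.9 and 62.1 CPM in the Dnmt3a+/+ BM tumors and at 53.1, 89.8, 65.7 and 71.5 CPM in the Dnmt3a+/Δ BM tumors. The groups overlapped through Dnmt3a+/+ BM replicate 3, of BMT8, and Dnmt3a+/Δ BM replicate 1, of BMT18. Within each experiment every Dnmt3a+/Δ BM tumor was above every Dnmt3a+/+ BM tumor. The log2 fold change was 0.62 ± 0.26 (SE; 95% interval 0.01 to 1.23; edgeR, unadjusted p = 0.0474, adjusted p = 0.450). With experiment as a covariate it was 0.61 ± 0.26 (SE, edgeR, adjusted p = 0.338), and in BMT18 alone 0.96 ± 0.33 (SE, edgeR, adjusted p = 0.492).

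The Tet enzymes differed among themselves. Tet1 (chr10:62804570-62908996, minus strand) had 7, 9 and 10 counts in the Dnmt3a+/+ BM tumors and 22, 55, 81 and 31 counts in the Dnmt3a+/Δ BM tumors. All Dnmt3a+/Δ BM tumors were above all Dnmt3a+/+ BM tumors, from 0.549 to 1.65 CPM against 0.141 to 0.306 CPM. Tet1 passed the filter on low counts only through the Dnmt3a+/Δ BM tumors, so its test is of a gene selected through the group where it was high. The log2 fold change was 2.30 ± 0.56 (SE; 95% interval 1.01 to 3.60; edgeR, unadjusted p = 0.00359, adjusted p = 0.361) and 2.31 without Dnmt3a+/Δ BM replicate 2. DESeq2 called Tet1 (log2 fold change 2.35, adjusted p = 0.0122). In DESeq2 the call was lost without Dnmt3a+/+ BM replicate 1 (0.0992) or 2 (0.266) and without Dnmt3a+/Δ BM replicate 2 (0.0726) or 3 (0.125).

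Tet2 (chr3:133463679-133545139, minus strand), the Tet gene most often mutated in blood, stood at 17.6, 12.4 and 9.54 CPM with Dnmt3a+/+ BM and at 19.6, 12.2, 12.8 and 10.6 CPM with Dnmt3a+/Δ BM. The groups overlapped over nearly their whole range, and the log2 fold change was 0.07 ± 0.30 (SE; 95% interval -0.63 to 0.77; edgeR, adjusted p = 0.960). Its sign turned without Dnmt3a+/+ BM replicate 3 (-0.12) or Dnmt3a+/Δ BM replicate 1 (-0.13). Tet3 (chr6:83362373-83459084, minus strand), the Tet gene with the most RNA per length, stood at 58.9, 48.4 and 42.1 CPM with Dnmt3a+/+ BM and at 84.6, 57.8, 77.6 and 49.7 CPM with Dnmt3a+/Δ BM. Its log2 fold change was 0.44 ± 0.22 (SE; 95% interval -0.08 to 0.96; edgeR, adjusted p = 0.514), and the groups overlapped.

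Of the 7 genes past the filter, edgeR called 0 (0% of all genes were called; a call needs a change past 1 on the log2 scale, in either direction, with an adjusted p below 0.05), and DESeq2 called 1, Tet1 (1.87% of genes called). At an unadjusted p under 0.05, 3 of the 7 were higher in tumors with Dnmt3a+/Δ BM (Dnmt1, Uhrf1 and Tet1), against 5.83% of all genes, and 0 were lower, against 5.20% (11.0% of all genes in either direction). In 2 of the 7, Dnmt1 and Tet1, all Dnmt3a+/Δ BM tumors were above all Dnmt3a+/+ BM tumors, as in 6.12% of genes, and in 0 of the 7 were all below, as in 6.32%. The log2 fold change was above 0 in 7 of 7, against 50.2% of all genes, and its median was 0.62, against 0.00252 over all genes tested. Of the 7 genes, 4 were highest in Dnmt3a+/Δ BM replicate 2, and 7 of 7 were lowest in a tumor with Dnmt3a+/+ BM. The shares of all genes with these traits were not computed, so these 2 counts have no baseline and nothing is read from them. Tet1 passed the filter through the Dnmt3a+/Δ BM tumors: 4 of these 4 but 1 of the 3 Dnmt3a+/+ BM tumors reached its level of 0.248 CPM, so it entered the test through the group in which it was high. Of the other 6 genes, 2 were higher at an unadjusted p under 0.05, 1 did not overlap, and the median was 0.53. The values come from the same tumors and are not independent of each other, and the counts are a description.

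**Figure D4:**
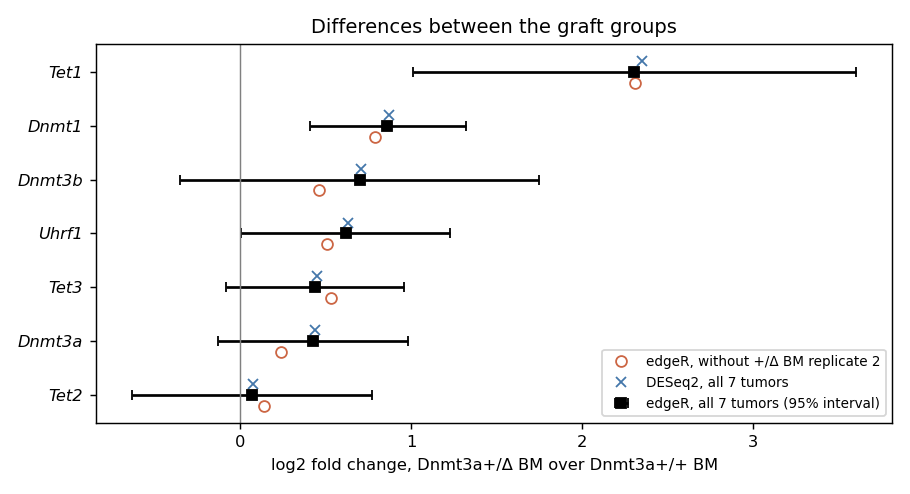
Log2 fold change of the 7 genes past the filter, Dnmt3a+/Δ BM over Dnmt3a+/+ BM (horizontal axis); squares with bars are edgeR estimates with 95% intervals, circles the estimate without Dnmt3a+/Δ BM replicate 2, crosses DESeq2. The intervals of Tet1 (1.01 to 3.60), Dnmt1 (0.41 to 1.32) and Uhrf1 (0.01 to 1.23) lie above 0, before adjustment over all genes. Tet1 entered the test through the group in which it was high.

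The second comparison asked whether Dnmt1 and Uhrf1 followed cell cycle genes from tumor to tumor. The mean log2 CPM of 40 cell cycle genes (20 of S phase and 20 of G2 and M phase, none of them among the 8) was 4.96, 5.39 and 5.86 in the Dnmt3a+/+ BM tumors and 5.63, 5.82, 5.53 and 5.93 in the Dnmt3a+/Δ BM tumors. The groups overlapped (5.40 ± 0.45 and 5.73 ± 0.18, SD, n = 3 and 4; exact permutation test, two-sided, p = 0.257). Dnmt3a+/+ BM replicate 1 was the lowest and Dnmt3a+/Δ BM replicate 4 the highest, while Dnmt3a+/+ BM replicate 3 lay among the Dnmt3a+/Δ BM tumors.

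Uhrf1 and these genes had Pearson's r = 0.88 over the 7 tumors (exact permutation over all pairings of the tumors, two-sided, p = 0.00873) and Spearman's rho = 0.75 (p = 0.0663, exact; adjusted 0.364). Adjusted over all genes tested, p for r was 0.247, and 2.50% of all genes had an r as high. Centred within each graft group, r was 0.85, given without a p because centred values cannot be exchanged freely between groups. With the S phase genes alone r was 0.92 (p = 0.00456, exact). Without Dnmt3a+/+ BM replicate 1 and Dnmt3a+/Δ BM replicate 4, the tumors farthest from the median, r was 0.72 (p = 0.175, exact), and without Dnmt3a+/+ BM replicate 1 alone it was 0.73 (p = 0.101, exact). The size of the relation thus rested in part on the tumor with the least cell cycle RNA. The 2 experiments hold 4 and 3 tumors, too few for an r of their own. Centred within experiment, r was 0.85, again without a p.

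Dnmt1 gave r = 0.44 with the same genes (exact permutation, p = 0.330, adjusted 0.647), and 24.3% of genes had an r as high. Its rho was 0.39 (exact permutation, p = 0.396, adjusted 0.683). Without the 2 tumors farthest from the median r was -0.07. Centred within graft group it was -0.05 and centred within experiment 0.61, both without a p as above. With scaling by library size alone it was 0.70 (p = 0.0766, exact). The value turned on single tumors, with r = 0.10 without Dnmt3a+/+ BM replicate 1. Dnmt3a+/+ BM replicate 3 had the least Dnmt1 of all tumors (37.9 CPM) at a high cell cycle level (5.86), and without it r was 0.94 (p = 0.00556, exact permutation). That tumor was singled out after its values were seen. Its Dnmt1 to Uhrf1 ratio was 0.610 counts of Dnmt1 per count of Uhrf1, against 1.07 to 1.53 in the other 6 tumors. The mean ratio was 1.11 ± 0.432 (SD, n = 3) with Dnmt3a+/+ BM and 1.23 ± 0.205 (SD, n = 4) with Dnmt3a+/Δ BM (exact permutation test, two-sided, p = 0.714).

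**Figure D5:**
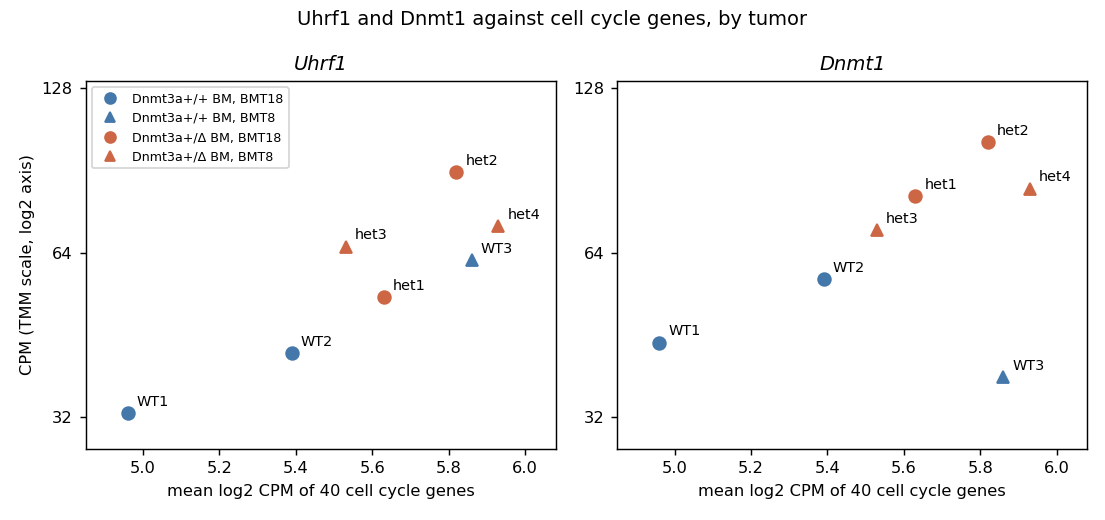
CPM of Uhrf1 (left) and Dnmt1 (right) on a log2 axis against the mean log2 CPM of 40 cell cycle genes, 1 point per tumor; blue is Dnmt3a+/+ BM (WT), orange Dnmt3a+/Δ BM (het), circles BMT18 and triangles BMT8. Uhrf1 lies higher at higher cell cycle levels (r = 0.88), and in the Dnmt1 panel Dnmt3a+/+ BM replicate 3 (WT3) lies apart at 37.9 CPM.

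Among the other genes, Dnmt3b had r = 0.84 with the cell cycle genes (exact permutation, p = 0.0145, adjusted 0.275; rho = 0.79, p = 0.0480, adjusted 0.326; r = 0.68 without the 2 farthest tumors), and a higher r of 0.92 with 10 endothelial markers (p = 0.00437, adjusted 0.0895; rho = 0.86, p = 0.0238, adjusted 0.220; r = 0.74 without the 2 farthest). With the cell cycle genes, Tet1 gave 0.53, Dnmt3a 0.11, Tet3 -0.23 and Tet2 -0.63, with adjusted p from 0.484 to 0.915. In all, 35 relations were computed (7 genes with 5 lists), and none had an adjusted p under 0.05. The highest r of Uhrf1 among the 5 lists was not with the cell cycle genes. With the endothelial markers it had r = 0.93 (p = 0.00357, exact permutation; adjusted 0.0857), rho = 0.96 (p = 0.00278, adjusted 0.112) and r = 0.92 without the 2 farthest tumors. The endothelial markers were at a mean log2 CPM of 0.80, 0.76 and 1.69 in the Dnmt3a+/+ BM tumors and of 1.58, 3.79, 2.12 and 2.86 in the Dnmt3a+/Δ BM tumors (exact permutation test, p = 0.0857). Of the 10, 10 had a log2 fold change above 0 (50.2% of all genes). At an unadjusted p under 0.05 in edgeR, 7 were higher (5.83% of all genes): Pecam1, Cdh5, Kdr, Tek, Tie1, Eng and Esam, from 1.24 for Tie1 to 2.79 for Tek. DESeq2 called 3 (1.87% of all genes). Without Dnmt3a+/Δ BM replicate 2, Tek was at 0.96 and Cdh5 at 1.44 in place of 2.59, and the 7 ran from 0.88 for Tie1 to 1.46 for Eng. Their highest gene, Pecam1, was at 5.95 ± 1.93 (SD, n = 3) and 17.6 ± 9.57 CPM (SD, n = 4). The part of vessel RNA in the Uhrf1 values was not tested.

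Dnmt1 and the epithelial markers had r = -0.76 (exact permutation, p = 0.0478; adjusted 0.323), rho = -0.86 (p = 0.0238, adjusted 0.286) and r = -0.50 without Dnmt3a+/Δ BM replicates 1 and 2. The 14 epithelial markers were at a mean log2 CPM of 9.34 ± 0.16 (SD, n = 3) with Dnmt3a+/+ BM and 8.86 ± 0.29 (SD, n = 4) with Dnmt3a+/Δ BM (exact permutation test, p = 0.0857). Of the 14, 13 had a log2 fold change below 0 (50.2% of all genes were above 0). At an unadjusted p under 0.05 in edgeR, Cdx1 (-1.15) and Lgals4 (-0.96) were lower (5.20% of all genes) and Cdx2 (0.79) was higher (5.83%). Cdx1 and Cdx2 are transcription factors of intestinal identity, and Lgals4 is an intestinal galectin. The part of this difference in Dnmt1 was not tested. Tet1 had r = 0.80 with the endothelial markers (exact permutation, p = 0.0333, adjusted 0.191) and rho = 0.86 (exact permutation, p = 0.0238, adjusted 0.220). Without the 2 farthest tumors its r was 0.91. Tet1 passed the filter on low counts through the Dnmt3a+/Δ BM tumors, in which these markers also had the higher mean. Its relation to them is therefore only a description.

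The genes with the most similar pattern over the 7 tumors were ranked by Pearson's r of log2 CPM, as a description. For Uhrf1 they were Prpf6 (0.997), Mcm2 (0.993), Ddx11 (0.993), Acer2 (0.993) and Zgrf1 (0.989). Mcm2 is a subunit of the replicative helicase and Ddx11 a helicase of replicating cells. Among the 8 genes, Dnmt3b was nearest to Uhrf1 (0.947), followed by Tet1 (0.807) and Dnmt1 (0.635). Dnmt1 itself was nearer to Tet1 (0.709) and Dnmt3a (0.706) than to Uhrf1. For Dnmt1 the nearest genes were Zfp446 (0.994), Alms1 (0.988), Dph6 (0.977), Cdca7l (0.975) and Recql5 (0.967), of which Recql5 is a DNA helicase. For Dnmt3a they were Pik3ap1 (0.996), Tert (0.994), Sec14l1 (0.990), Il6st (0.989) and Rdh16f1 (0.989). Pik3ap1 is an adaptor of B cells and myeloid cells, and Il6st the shared receptor subunit of the interleukin-6 family.

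For Dnmt3b the nearest genes were Ppid (0.992), Ahsa1 (0.990), Hsp90aa1 (0.988), Telo2 (0.987) and Hsf1 (0.985), of which Ahsa1 and Ppid are co-chaperones of Hsp90 and Hsf1 is the heat shock transcription factor. For Tet1 they were Sept6 (0.999), Wif1 (0.978), Msx1 (0.975), Muc6 (0.969) and Zfp90 (0.968); Wif1 is a secreted Wnt inhibitor. For Tet2 they were Bicd2 (0.993), Vps26b (0.988), Kremen1 (0.986), Mpp7 (0.985) and Tiam1 (0.985). For Tet3 they were Flt4 (0.942), Sept8 (0.942), Zfp282 (0.936), Cavin4 (0.934) and Dzank1 (0.932), and Tet2 and Tet3 had r = 0.745 with each other. The genes were picked for their r from 15810, so no p is given.

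The other genes of DNA methylation were described by the same fit. Of 14 partners and recruiters of the methyltransferases, 13 passed the filter, and their median log2 fold change was 0.16. Trim28, a corepressor that directs methylation to repeats and imprinted regions, was the partner with the most RNA and the 1 with an unadjusted p under 0.05 (154 ± 15.4 CPM, n = 3, and 200 ± 21.4 CPM, n = 4; log2 fold change 0.37; edgeR, unadjusted p = 0.0418, adjusted p = 0.435). Of 8 methyl-CpG binding proteins, the 1 with an unadjusted p under 0.05 was Zbtb38 (0.73, and 0.44 without Dnmt3a+/Δ BM replicate 2; edgeR, adjusted p = 0.433), and the median was 0.20. Mbd2, the reader with the most RNA, was at 193 ± 37.3 CPM (n = 3) and 163 ± 45.6 CPM (n = 4).

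Downstream of the Tet enzymes, 16 genes of base excision and cofactor supply had a median log2 fold change of 0.13. Parp1, a sensor of DNA strand breaks, was the 1 gene of these 16 with an unadjusted p under 0.05, at 37.9 ± 5.83 CPM (n = 3) and 77.0 ± 28.6 CPM (n = 4), a log2 fold change of 1.02 (edgeR, unadjusted p = 0.00975, adjusted p = 0.377) and of 0.79 without Dnmt3a+/Δ BM replicate 2. Idh1, which makes the 2-oxoglutarate that the Tet enzymes use, was the gene of this list with the most RNA, at 311 ± 80.1 and 330 ± 99.3 CPM. Of the 12 genes that supply the methyl donor, 0 had an unadjusted p under 0.05 and the median was 0.18. Ahcy, which clears the inhibitory by-product of methylation, was highest among them (254 ± 47.1 and 280 ± 90.0 CPM; log2 fold change 0.15, and -0.02 without Dnmt3a+/Δ BM replicate 2). None of the genes of these 4 lists was called by edgeR or DESeq2 (0% and 1.87% of all genes). Over all genes, 11.0% had an unadjusted p under 0.05 in edgeR.

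Genes whose expression depends on DNA methylation were examined next. Of 18 imprinted genes, 16 passed the filter and 13 had a log2 fold change above 0 (50.2% of all genes). The median was 0.64, or 0.52 without Dnmt3a+/Δ BM replicate 2. At an unadjusted p under 0.05 in edgeR, 4 were higher (5.83% of all genes) and 0 lower (5.20%). Calls numbered 0 in edgeR (0% of all genes) and 2 in DESeq2 (1.87%). Plagl1, a zinc finger transcription factor, was at 2.13 ± 0.735 CPM (n = 3) and 7.44 ± 2.69 CPM (n = 4), a log2 fold change of 1.80 (edgeR, adjusted p = 0.361; DESeq2, 0.00535). Cdkn1c, a cyclin-dependent kinase inhibitor, was at 7.22 ± 3.98 and 29.7 ± 16.6 CPM, a log2 fold change of 2.05 (edgeR, adjusted p = 0.399; DESeq2, 0.0468). Meg3, a noncoding RNA, had 1.89 (adjusted p = 0.422 in edgeR and 0.155 in DESeq2). Grb10, an adaptor of insulin receptor signaling, had 1.84 (0.407 and 0.0888). Without Dnmt3a+/Δ BM replicate 2, Plagl1, Cdkn1c, Meg3 and Grb10 were at 1.71, 1.90, 1.33 and 1.30. Of these 4, the groups overlapped in Cdkn1c and Meg3. Igf2r, the imprinted gene with the most RNA, was at 57.1 ± 5.40 and 82.2 ± 30.0 CPM (log2 fold change 0.53, and 0.26 without Dnmt3a+/Δ BM replicate 2; edgeR, adjusted p = 0.503). The fibroblast and endothelial markers had median log2 fold changes of 0.89 and 1.74 in the same tumors (0.17 and 1.2 without Dnmt3a+/Δ BM replicate 2), and their part in the imprinted genes was not tested. Of the fibroblast markers, Pdgfra had an unadjusted p under 0.05 in edgeR (log2 fold change 2.10, and 1.02 without that tumor), and the most abundant, Col3a1, had 0.79, or 0.28 without it.

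Of 14 germline genes that promoter methylation keeps silent in somatic cells, 3 passed the filter and 3 were at 0 in all tumors. The median of the 3 that passed was -0.50, but 0.08 without Dnmt3a+/+ BM replicate 1, and the highest, Brdt, was at 2.17 ± 0.680 CPM (n = 3) and 1.88 ± 1.13 CPM (n = 4). Of the 40 cell cycle genes, 38 had a log2 fold change above 0 (50.2% of all genes), with a median of 0.30, which was 0.09 without Dnmt3a+/+ BM replicate 1. Mcm2 (0.62; edgeR, unadjusted p = 0.0366, adjusted p = 0.431) and the replication licensing factor Cdc6 (0.84; unadjusted p = 0.0497, adjusted p = 0.452) were the 2 of 40 with an unadjusted p under 0.05. Over all genes, 5.83% were higher at that threshold. The most abundant, Pcna and Top2a, had log2 fold changes of 0.19 and 0.57. The log2 fold changes of the 40 genes ran from -0.09 to 0.84, so that Uhrf1, at 0.62, lay within their range and Dnmt1, at 0.86, just above it.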

How the data were processed

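RNA of 7 whole colon tumors was sequenced from a directional poly(A) library. The authors trimmed reads with Trimmomatic, checked them with FastQC, aligned them to mm10 with STAR and deposited RSEM estimated counts (expected counts) per gene, which are whole numbers in the deposited table; the annotation release is not given in the sources used here. Symbols matched 42462 of 43346 genes (unmatched genes held 0.104% of counts). All columns were used.

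The 3 Dnmt3a(+/+) and 4 Dnmt3a(+/-) BM tumors were compared with the edgeR 4.0.16 quasi-likelihood test (R 4.3.3; TMM library sizes, filterByExpr, Benjamini-Hochberg adjustment, calls at adjusted p under 0.05 and absolute log2 fold change over 1). DESeq2 1.42.0, other scalings and filters, experiment as covariate and each tumor left out were alternatives. Scripts were tested on simulated data. Correlations used log2 CPM (prior count 2) and exact permutation (scipy 1.17.1). Named genes are the 8 genes, list genes with an unadjusted p under 0.05 or the highest CPM of their list, and the 5 most similar genes. Members and lists were chosen with earlier results of these data known. Totals of 38472738 to 64314999 counts limit Dnmt3l and Tet1, with under 100 counts per tumor, and intervals on counts cover counting error only. Replicates are separate tumors by their labels. The paper counts as many mice as sequenced tumors, although a passage of it swaps the numbers of the groups. P-values measure the spread between these tumors. Replicate numbers did not pair the samples (correlations of same-numbered deviations 0.568, 0.071 and -0.038).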

Additional observations from a re-analysis of the deposited data

Results flagged for a closer look

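In 15 sets of values over the 4 Dnmt3a+/Δ BM tumors, 2 held a tumor far from the other 3 by Dixon's 95% value, which chance gives in about 1 of 20 sets. The mean log2 CPM of the 20 G2 and M phase genes was lowest in Dnmt3a+/Δ BM replicate 3, at 5.51, against 5.87 to 5.90 in the other tumors of the group. The mean log2 CPM of the 10 fibroblast markers was highest in Dnmt3a+/Δ BM replicate 2, at 5.88, against 3.81 to 4.06. An interaction term in edgeR asked whether the graft difference of the 7 genes differed between the experiments. BMT8 holds 1 Dnmt3a+/+ BM tumor, so the term cannot decide this and only its size is given. As BMT8 minus BMT18 on the log2 scale, it ran from -0.93 for Dnmt3b to 0.20 for Tet2, with -0.80 for Uhrf1.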

How the results depend on the processing

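DESeq2 called 300 genes where edgeR called 0 under each of its alternatives, with 883 to 2143 genes at an unadjusted p under 0.05 when 1 tumor was left out. DESeq2 called 58 to 697 genes with 1 tumor left out (231, 58 and 440 without Dnmt3a+/+ BM replicates 1, 2 and 3, and 697, 171, 202 and 259 without Dnmt3a+/Δ BM replicates 1 to 4) and 474 with experiment as a covariate; these fits were chosen after seeing the data. Of the 7 genes, DESeq2 called 1 in the fit to all tumors and with the covariate, and 0 to 1 with a tumor left out; without Dnmt3a+/+ BM replicate 2 the 1 was Dnmt1. The cause was not tested. Same-numbered tumors share only a number: the fit with a replicate block called 0 genes (1885 at an unadjusted p under 0.05, against 1744), gave 0.52 for Dnmt3a and left 0 of the 7 genes called. Dnmt3a kept its sign in every alternative, from 0.24 to 0.55 with 1 tumor left out, as did the other genes except Tet2, which was -0.12 without Dnmt3a+/+ BM replicate 3 and -0.13 without Dnmt3a+/Δ BM replicate 1 and up to 0.32 with 1 tumor left out. Scaling by library size alone moved the median log2 fold change of all genes to 0.213 and Dnmt3a to 0.66. The Uhrf1 correlation lost an unadjusted p under 0.05 as Spearman's rho (0.75), with Mki67 alone (0.70), without the 2 farthest tumors (0.72) and without Dnmt3a+/+ BM replicate 1 (0.73), and ran from 0.73 to 0.91 with 1 tumor left out. That of Dnmt1 was -0.05 centred within graft group, -0.07 without the 2 farthest tumors and 0.10 to 0.94 with 1 left out. Tet1 fell out of the filter of CPM over 1 in at least 3 tumors and has no value there. Depth limits Dnmt3l and Tet1, and DESeq2 gave no adjusted p for Dnmt3l.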
